A study of Mus musculus with 3 samples.

Results

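The aminoacyl-tRNA synthetase genes were followed in mouse liver by matching a list of 36 gene names, 20 for cytosolic and 16 for mitochondrial enzymes, to the annotated symbols of the array and to their current names and synonyms. Of these 36 genes, 29 had a value on all 3 arrays, out of 10186 named genes with a value on all 3. The liver RNA came from female C57BL/6 mice, and each array compared 2 dye-labelled RNAs. One dye always carried the control, liver of untreated wild-type mice. The other carried liver of wild-type mice taken 24 h after an injection into the peritoneum of 10 mg D-(+)-galactosamine (GalN) together with 3 ng of the bacterial endotoxin lipopolysaccharide (LPS), liver of untreated TMX-/- mice, or liver of TMX-/- mice given the same LPS/GalN. TMX is a thioredoxin-related protein of the endoplasmic reticulum membrane, encoded by Tmx1, and LPS with GalN is a widely used model of acute liver injury. Not given in the sources used here were the age of the mice, the kind of TMX deletion, and whether a channel held RNA of 1 mouse or of a pool.

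Aminoacyl-tRNA synthetases join each amino acid to its own tRNAs, which then carry it to the ribosome. Most amino acids have a cytosolic enzyme and a separate mitochondrial enzyme, named with the suffix 2, both encoded in the nucleus. Several cytosolic enzymes are bound together in a multisynthetase complex. Many of the cytosolic genes are known targets of ATF4, the transcription factor of the amino acid and integrated stress responses, and hepatocytes use the pathway to keep up their large output of plasma proteins.

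All values are log2 ratios of liver over untreated wild-type liver, so that 1 is 2-fold higher and -1 is 2-fold lower, after each array was centred on its median over the 10186 genes. The numerator of the deposited ratio is not stated. Sample over control is its likely direction, because Tmx1 stood at -2.96 in untreated and -3.88 in treated TMX-/- liver and at 0.59 in treated wild-type liver. With the other numerator every "higher" below would read "lower". Each group had 1 array, so no difference was tested, and none can be set against the variation between mice. The only error at hand comes from 79 genes with 2 probes each, where probes of 1 gene differed with a single-probe SD of 0.42 log2 in treated wild-type, 0.43 in untreated TMX-/- and 0.77 in treated TMX-/- liver. That SD was 0.68 for the difference between treated and untreated TMX-/- liver and 0.60 for treated TMX-/- minus treated wild-type liver. Of the 145 values of the 29 genes over the 3 arrays and these 2 differences, 6 were larger than 2 such SDs. The 2 differences are built from the same 3 arrays, so these values are not separate. The share of all genes past this limit was not counted. A ratio shows no level, so the presence of the hepatocyte markers could not be checked as such, and fewer cells of a type cannot be told from less RNA per cell.

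Of the 20 cytosolic genes, 16 had a value on every array. Aars had a probe that was blank on all arrays, and no row was matched to Dars, Sars and Vars. Of the 16 mitochondrial genes, 13 had a value on every array. Ears2 was blank throughout, Mars2 had a value in treated TMX-/- liver alone (1.07), and no row was matched to Sars2. Every measured synthetase was read by 1 probe. Some of the array's names are old, and 2 of them are shared by different genes. The name Vars2 was formerly used for the cytosolic valine enzyme, now Vars, and the name Hars2 for Dtd1, a D-aminoacyl-tRNA deacylase. The probes with these names were therefore kept apart from Vars2 and Hars2, which were read from the probes named Vars2l and Harsl. The probe named Vars2 stood at 0.08, -0.02 and 0.64 in treated wild-type, untreated TMX-/- and treated TMX-/- liver, and the probe named Hars2 at 0.49, 0.21 and -0.05.

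The promoters show 1 feature in which the cytosolic and mitochondrial genes could be compared without the arrays. RefSeq promoters of assembly GRCm38.p6, from 250 bases before to 50 bases after each gene's start, were at hand for 27 of the 36 genes, 13 cytosolic and 14 mitochondrial. The letters TGATGCA, the core of a composite C/EBP-ATF element that ATF4 binds, were searched on both strands. They were found in 4 of 13 cytosolic genes, in 0 of 14 mitochondrial genes, and in 3.15% of all 32851 promoters. For each motif a synthetase gene was counted once if any of its promoters matched. The share of all promoters counts each promoter by itself, so the units differ. The matches of Iars, Tars and Yars are shown 5′ to 3′ along the gene's own strand, with the matched letters or their reverse complement in capitals.
Iars, chr13:49682128-49682154, + strand: ctgtcagtatTGCATCAcctccagacg
Tars, chr15:11399656-11399682, - strand: ggagtcccgtTGCATCAgctggttagc
Yars, chr4:129189896-129189922, + strand: cgagctcagcTGATGCAacccgacggg
The match began 14 bases before the start in Tars, and 8 and 3 bases after it in Iars and Yars. The E-box letters CACGTG, a MYC and USF site, were found in 4 of 13 cytosolic genes (Farsb, Iars and Tars among them), in 1 of 14 mitochondrial genes (Ears2), and in 7.15% of all promoters. The letters TGACGT, which form part of the CRE, were found in 1 of 13 cytosolic genes (Eprs), in 3 of 14 mitochondrial genes (Aars2, Nars2 and Wars2), and in 7.51% of all promoters. A match describes the letters and does not show binding. Iars and Tars were among the genes with both of the first motifs, and in treated TMX-/- liver Iars stood at 1.26 and Tars at -0.12.

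After LPS/GalN, the cytosolic synthetases lay higher than untreated wild-type liver in both genotypes, and the mitochondrial enzymes did not shift as a group. The median of the 16 cytosolic genes was 0.44 in treated wild-type, 0.16 in untreated TMX-/- and 0.82 in treated TMX-/- liver, while the median of all 10186 genes was 0 by construction. The median of the 13 mitochondrial genes was -0.03, 0.01 and 0.14 on the same arrays. These arrays share their control, so that a control low in a gene would raise it on all 3. Hepatocyte markers lay low and macrophage markers high beside the synthetases, as given below with the other gene lists.

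**Figure D1:**
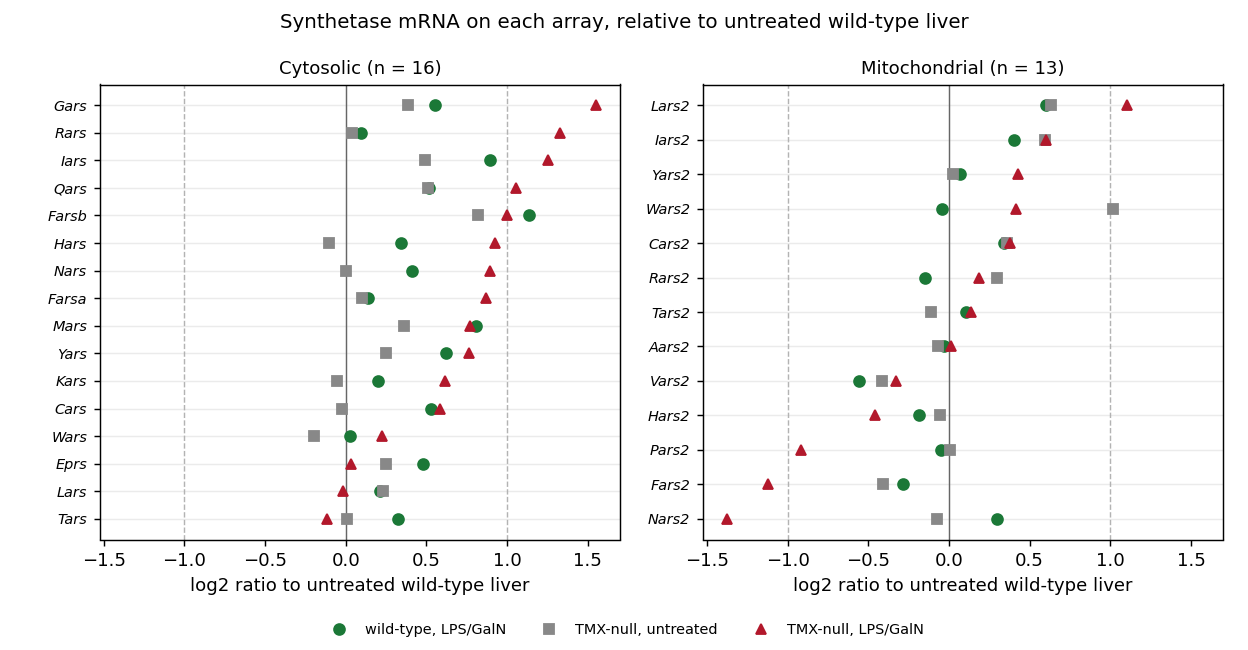
Log2 ratio to untreated wild-type liver (x axis) of 16 cytosolic (left) and 13 mitochondrial (right) synthetase genes (y axis, ordered by treated TMX-/- liver). Circles, squares and triangles stand for treated wild-type, untreated TMX-/- and treated TMX-/- liver, with 1 array each and no error bars, and dashed lines mark 2-fold. The cytosolic triangles run from -0.12 (Tars) to 1.55 (Gars) and the mitochondrial ones from -1.38 (Nars2) to 1.10 (Lars2).

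In treated wild-type liver all 16 cytosolic genes were above 0, the median of all genes, from 0.03 for Wars, the tryptophan enzyme, to 1.13 for Farsb, the beta subunit of the phenylalanine enzyme. With the deposited values left uncentred 15 were above 0, and Wars was not. Their quartiles were 0.21 and 0.57. Farsb was the 1 cytosolic gene past 2-fold (1 of 16), where 2.81% of all genes were 2-fold higher. It was followed by Iars (0.89), Mars (0.81), Yars (0.62), Gars (0.55), Cars (0.53), Qars (0.51) and Eprs (0.48), all above the SD of a single probe. None of the 16 cytosolic and 13 mitochondrial genes was 2-fold lower, where 1.76% of all genes were, none of the mitochondrial ones was 2-fold higher, and 6 of them were above 0. Lars2, the mitochondrial leucine enzyme, was highest at 0.60 and Vars2, the valine enzyme, lowest at -0.55.

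In untreated TMX-/- liver 12 of 16 cytosolic genes were above 0 (10 with the deposited values), from -0.20 for Wars to 0.82 for Farsb, and 0 of 16 were 2-fold higher, where 1.8% of all genes were. None of the 29 synthetases was 2-fold lower, where 0.834% of all genes were. Of the mitochondrial genes, Wars2, the mitochondrial tryptophan enzyme, was past 2-fold at 1.02 (1 of 13). In treated wild-type liver it stood at -0.04 and after treatment of TMX-/- mice at 0.41, so that it was past 2-fold on 1 array of 3, and it fell short of 2-fold with the deposited values. Vars2 was the lowest mitochondrial gene at -0.42.

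Treated TMX-/- liver had the highest value of the 3 arrays for 11 of 16 cytosolic genes and the lowest for 3. Among the mitochondrial genes it had the highest value for 7 of 13 and the lowest for 4. Its values also had the widest spread over all genes, with an SD of 1.04. The SD was 0.48 in treated wild-type and 0.40 in untreated TMX-/- liver. A wider spread places more genes at either extreme, and the matching shares of all genes were not counted. Gars, the glycine enzyme, whose gene also gives the mitochondrial form, stood at 0.55 in treated wild-type, 0.38 in untreated TMX-/- and 1.55 in treated TMX-/- liver, the last being 2.93-fold above control. Rars, the arginine enzyme of the multisynthetase complex, stood at 0.10, 0.04 and 1.33. The 2 arrays without the combination of deletion and treatment were close to control for Rars, and treated TMX-/- liver was 2.51-fold above it.

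Iars, the isoleucine enzyme, stood at 0.89, 0.49 and 1.26, above control on all 3 arrays. Qars, the glutamine enzyme, stood at 0.51, 0.51 and 1.05. These were the 4 cytosolic genes past 2-fold in treated TMX-/- liver (4 of 16), where 13.5% of all genes were 2-fold higher, and none was 2-fold lower, where 13.3% of all genes were. Above 0 were 14 of 16 (13 with the deposited values, where Eprs turned), and 9 of 16 were higher by more than the SD of a single probe. With equal spread none reached 2-fold, with Gars at 0.96, Rars at 0.82, Iars at 0.78 and Qars at 0.65. Farsb was just short of 2-fold, but for this gene treated wild-type (1.13) and untreated TMX-/- (0.82) liver lay as high. Farsa, which encodes the alpha subunit of the same enzyme, differed from it, with 0.14, 0.10 and 0.87.

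Hars (0.34, -0.11 and 0.92), the histidine enzyme, and Nars (0.41, 0.00 and 0.89), the asparagine enzyme, were high in treated TMX-/- liver, intermediate in treated wild-type liver and near or below control without treatment. Kars, the lysine enzyme, which also serves mitochondria, followed the same order at 0.20, -0.05 and 0.61. Mars (0.81, 0.36 and 0.77), Yars (0.62, 0.25 and 0.77) and Cars (0.53, -0.03 and 0.58), the methionine, tyrosine and cysteine enzymes, were about as high in treated wild-type as in treated TMX-/- liver. Wars stayed within 0.22 of control on every array (0.03, -0.20 and 0.22). It is known as the synthetase that interferon gamma induces. Of 13 measured interferon gamma response genes 4 were 2-fold higher in treated TMX-/- liver, where 13.5% of all genes were. The median of the 13 was 0.35, with 10 of 13 above 0. They ran from -0.85 (Gbp5) and -0.76 (Iigp1) to 1.73 (Gbp2) and 2.87 (Cxcl10), and Irf1 stood at 0.20.

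The order differed in the remaining 3 cytosolic genes, though by less than the SD of a single probe. Treated minus untreated TMX-/- liver gave -0.22 for Eprs, -0.25 for Lars and -0.12 for Tars (SD 0.68). Treated TMX-/- minus treated wild-type liver gave -0.44, -0.23 and -0.44 (SD 0.60). Eprs (0.48, 0.25 and 0.03), which encodes the joint glutamate and proline enzyme, Lars (0.21, 0.23 and -0.02), the leucine enzyme, and Tars (0.32, 0.00 and -0.12), the threonine enzyme, each had their lowest value in treated TMX-/- liver.

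The mitochondrial genes lay on both sides of control in treated TMX-/- liver, with 1 of 13 at 2-fold higher and 2 of 13 lower, near the shares of all genes (13.5% and 13.3%). With equal spread none reached 2-fold. Lars2 was the higher one, at 0.60, 0.63 and 1.10 in treated wild-type, untreated TMX-/- and treated TMX-/- liver. Nars2 and Fars2 were the lower ones. Nars2, the mitochondrial asparagine enzyme, stood at 0.30, -0.08 and -1.38, so that it was 2.60-fold below control in treated TMX-/- liver and near control in the others. Fars2, the mitochondrial phenylalanine enzyme, stood at -0.28, -0.41 and -1.12, below control on all 3.

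Pars2, the mitochondrial proline enzyme, stood at -0.05, 0.01 and -0.92 and came next. Hars2 was low too (-0.18, -0.05 and -0.46). Iars2 (0.41, 0.59 and 0.60) and Cars2 (0.34, 0.36 and 0.38) were nearly level across the arrays and above control. Yars2 (0.07, 0.03 and 0.43), Rars2 (-0.15, 0.30 and 0.19), Tars2 (0.11, -0.11 and 0.14) and Aars2 (-0.03, -0.07 and 0.01) lay within the SD of a single probe on the array in question. Vars2 stayed below control, at -0.55, -0.42 and -0.33.

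Treated was next set against untreated TMX-/- liver, which asks how the liver without TMX differed after LPS/GalN. The control and the dyes cancel in this difference if the control RNA was 1 preparation. The cytosolic median was 0.58, with 13 of 16 genes above 0, and the mitochondrial median 0.01, with 7 of 13 above 0. After all arrays were scaled to the same spread the cytosolic median was 0.21, with 10 of 16 above 0, and the mitochondrial median -0.32. Rars (1.29, or 2.44-fold), Gars (1.17, or 2.25-fold) and Hars (1.03, or 2.04-fold) were 2-fold higher (3 of 16), where 11.4% of all genes were. With equal spread all 3 fell short of 2-fold, Rars at 0.76, Gars at 0.35 and Hars at 0.74.

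They were followed by Nars (0.89), Farsa (0.77), Iars (0.77), Kars (0.67), Cars (0.61), Qars (0.55), Yars (0.51), Wars (0.42), Mars (0.41) and Farsb (0.18). With equal spread most of these values shrank, Nars to 0.55, Farsa to 0.38, Yars to 0.07 and Iars to near 0, and Qars, Mars and Farsb lay below 0. Tars (-0.12), Eprs (-0.22) and Lars (-0.25) were below 0. Of the mitochondrial genes, Nars2 was 2-fold lower at -1.30 (1 of 13), where 12.1% of all genes were, and Pars2 (-0.93), Fars2 (-0.71), Wars2 (-0.60), Hars2 (-0.40) and Rars2 (-0.11) were below 0. With equal spread the gene past 2-fold was another, Wars2 at -1.36, while Nars2 stood at -0.73 and Fars2 at -0.05. Lars2 was the highest at 0.47, but stood at -0.32 with equal spread, followed by Yars2 at 0.40.

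Treated TMX-/- liver was also set against treated wild-type liver, the comparison of genotypes after injury. The same treated TMX-/- array enters both differences, so they are not independent. The cytosolic median was 0.28, with 11 of 16 genes above 0, but -0.16 with 7 of 16 above 0 when the arrays were scaled to the same spread, so its direction was not settled. The mitochondrial median was 0.04, and -0.06 with equal spread. Rars was 2-fold higher (1.23, or 2.34-fold), the 1 cytosolic gene of 16 to be so, where 9.64% of all genes were, and Gars was just short of it (0.998). Farsa (0.73), Hars (0.58), Qars (0.54) and Nars (0.49) came next. With equal spread all of these shrank, Rars to 0.69, Farsa to 0.35, Gars to 0.22, Hars to 0.12 and Nars to 0.01, and Qars turned to -0.03. Eprs and Tars were lowest, both at -0.44. Nars2 was 2-fold lower (-1.67, or 3.19-fold, 1 of 13), where 10.6% of all genes were, and Pars2 (-0.87) and Fars2 (-0.84) followed. With equal spread Nars2 stood at -1.25, still past 2-fold, and Pars2 and Fars2 at -0.50 and -0.32.

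**Figure D2:**
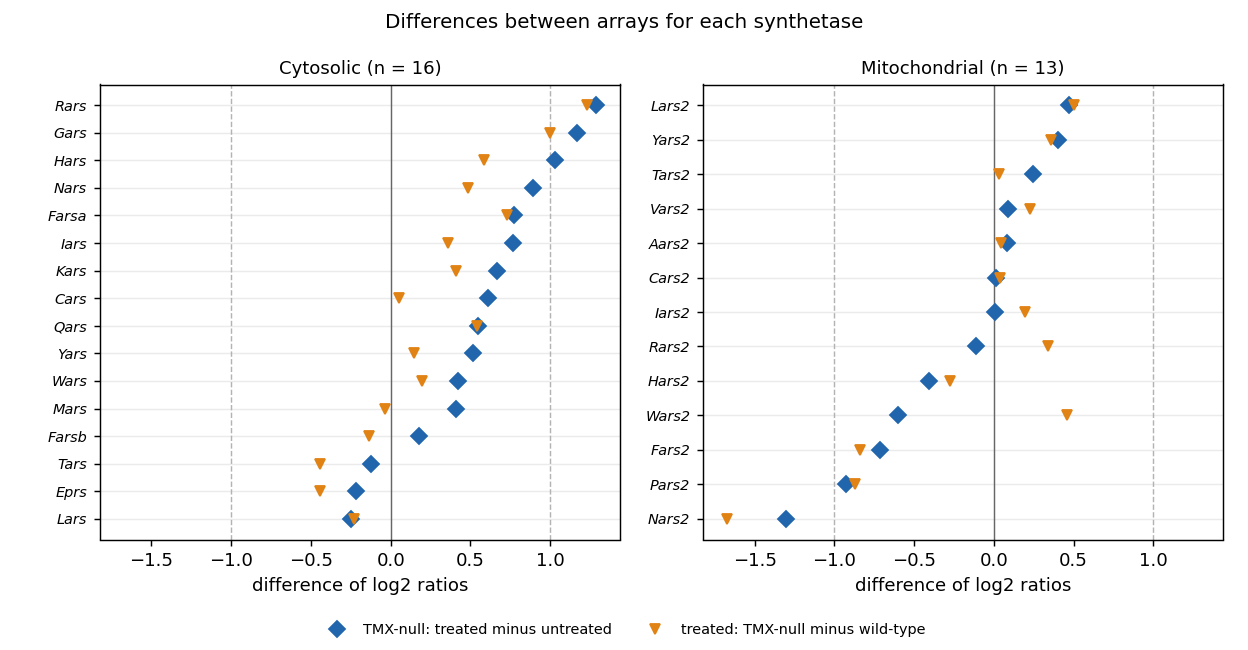
Differences of log2 ratios between arrays (x axis) for 16 cytosolic (left) and 13 mitochondrial (right) synthetase genes (y axis, ordered by the first difference). Diamonds are treated minus untreated TMX-/- liver and triangles treated TMX-/- minus treated wild-type liver, with 1 array on each side and dashed lines at 2-fold. Rars is highest on both (1.29 and 1.23) and Nars2 lowest (-1.30 and -1.67), and Wars2 lies on opposite sides of 0 (-0.60 and 0.46).

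The cytosolic and mitochondrial enzymes of the same amino acid were then paired, which gave 12 pairs over 11 amino acids, since both phenylalanine subunits share the partner Fars2. In treated against untreated TMX-/- liver the cytosolic gene was the higher of the pair in 10 of 12, with a median difference of 0.82, and by over 1 log2 in 5. With equal spread the count was below 10. Yars (0.07) then lay below Yars2 (0.22). Farsb, at 0.62 in treated and 1.30 in untreated TMX-/- liver, then lay below Fars2 (-0.05) in this difference. The widest pair was that for asparagine, with Nars at 0.89 and Nars2 at -1.30. With equal spread it was narrower (0.55 and -0.73) than that for tryptophan, with Wars at 0.45 and Wars2 at -1.36. As measured, asparagine was followed by Farsa over Fars2 (1.49 log2), Hars over Hars2 (1.43), Rars over Rars2 (1.40) and Wars over Wars2 (1.03). Leucine and threonine went the other way, with Lars below Lars2 (-0.72) and Tars below Tars2 (-0.37).

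In treated wild-type liver the cytosolic gene was the higher in 11 of 12 pairs, with a median difference of 0.33, and Lars and Lars2 were again the exception (-0.39). The SD of a single probe was larger on this array (0.42), but it does not give the error of a median over pairs. In untreated TMX-/- liver the cytosolic gene was the higher in 6 of 12, with a median difference of 0.01. In treated TMX-/- liver it was the higher in 9 of 12, with a median difference of 0.80, and by over 1 log2 in 5, while Lars2 exceeded Lars by over 1. In treated TMX-/- minus treated wild-type liver it was the higher in 8 of 12, with a median difference of 0.29. Pairs are not replicates of a liver, so these counts describe the arrays.

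**Figure D3:**
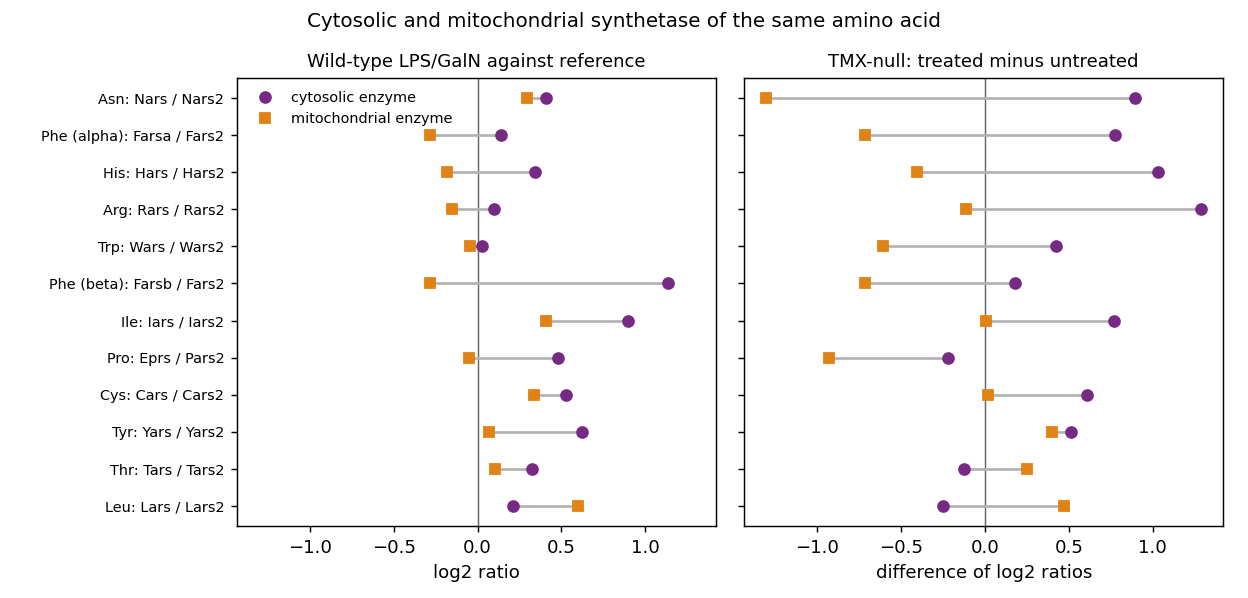
Cytosolic (circles) and mitochondrial (squares) synthetase of the same amino acid, joined by a line, for 12 pairs (y axis). The x axis gives the log2 ratio to untreated wild-type liver for treated wild-type liver on the left and the difference of log2 ratios between treated and untreated TMX-/- liver on the right. On the right, without scaling to equal spread, the circle lies above the square in value in 10 of 12 pairs, with Nars and Nars2 the farthest apart.

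The cytosolic enzymes were also grouped by structure. The 8 measured class I genes, which share a Rossmann-type catalytic fold, had medians of 0.52, 0.24 and 0.77 in treated wild-type, untreated TMX-/- and treated TMX-/- liver. The 7 measured class II genes had medians of 0.34, 0.00 and 0.89. The 7 measured enzymes of the multisynthetase complex, Eprs, Iars, Kars, Lars, Mars, Qars and Rars, had medians of 0.48, 0.25 and 0.77, and in treated against untreated TMX-/- liver they ranged from -0.25 (Lars) to 1.29 (Rars), with a median of 0.55 that turned to -0.10 with equal spread. Lars and Rars, bound in 1 complex, were the lowest and the highest of all 16 cytosolic genes in that difference. All 3 scaffold genes of the complex were high in treated TMX-/- liver. Aimp1 stood at 1.24, 1.05 and 1.97, high on every array, Aimp2 at 0.03, -0.21 and 1.08, and Eef1e1 at -0.26, 0.43 and 0.93. Aimp1 and Aimp2 were 2-fold higher in treated TMX-/- liver (2 of 3), where 13.5% of all genes were.

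The 10 measured synthetases known as ATF4 targets had medians of 0.50, 0.24 and 0.67 in treated wild-type, untreated TMX-/- and treated TMX-/- liver. The medians of all 16, which include these 10, were 0.44, 0.16 and 0.82. Of the 10, Gars and Iars were 2-fold higher in treated TMX-/- liver (2 of 10), where 13.5% of all genes were. The other genes of the ATF4 and amino acid response lay on both sides of 0. Their median was 0.14 over 19 measured genes in treated TMX-/- liver. There 3 were at least 2-fold higher (15.8%) and 4 lower (21.1%), beside 13.5% and 13.3% of all genes. In treated against untreated TMX-/- liver their median was 0.11. In this difference 3 were higher and 3 lower (15.8% each), beside 11.4% and 12.1% of all genes. In that difference Mthfd2, of mitochondrial folate metabolism, stood at 2.49 and Psph, of serine synthesis, at 1.77, while Cth, of cysteine synthesis from methionine, stood at -3.55 and Chac1, a glutathione-degrading enzyme, at -1.32. The 5 measured eIF2 kinase and stress signalling genes had a median of 0.48 in treated TMX-/- liver. Of these, Impact, which restrains the kinase GCN2, was 2-fold higher in treated TMX-/- liver (1 of 5, at 1.54), where 13.5% of all genes were. Eif2ak3, which encodes the kinase PERK, stood at 0.48, and Ppp1r15b, of an eIF2 phosphatase, was the lowest of the 5 at -0.68.

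Genes of neighbouring steps in translation were compared on the same difference, treated minus untreated TMX-/- liver. The 27 measured initiation factors had a median of 0.53, with 25 of 27 above 0. At 2-fold were 3 of 27, or 11.1%, beside 11.4% of all genes, led by Eif6 (1.61) and Eif4a1 (1.15), with Eif2b1 (-0.42) and Eif4h (-0.03) lowest. The 7 measured cytosolic elongation and termination factors had a median of 0.58, from Eef1d (-0.13) and Eef1a1 (-0.01) to Gspt1 (0.79) and the release factor gene Etf1 (1.13), which alone of the 7 was 2-fold higher. The 12 measured mitochondrial translation factors had a median of -0.13. Of these, 0 of 12 were at 2-fold in either direction, beside 11.4% of all genes higher and 12.1% lower. Among them Gatb, just short of 2-fold, and Mtif3 (-0.67) were lowest and Qrsl1 (0.22) and Tsfm (0.50) highest, and Gatb and Qrsl1 encode subunits of the complex that makes mitochondrial glutaminyl-tRNA in place of a synthetase.

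Genes of tRNA synthesis, processing and export had a median of 0.19 over 28 genes. At least 2-fold higher were 3 of 28, or 10.7%, beside 11.4% of all genes, with Tsen54 (1.28) and Polr3d (1.18) in front and Polr3k (-0.64) and Trnt1 (-0.43) last. Amino acid transporters had a median of 0.07 over 8 genes, -0.32 with equal spread, and were split. Slc3a2 (1.46) and Slc1a5 (1.06) were 2-fold higher, and Slc38a3 (-2.75) and Slc38a4 (-1.50), transporters of hepatocytes, 2-fold lower. These were 25% of the list in each direction, beside 11.4% of all genes higher and 12.1% lower. MYC and growth response genes had the highest median of these lists, 1.07 over 13 genes. At least 2-fold higher were 7 of 13, or 53.8%, beside 11.4% of all genes. Cad, of pyrimidine synthesis, stood at 2.73 and Myc at 2.56, and Nolc1 (0.12) and Hspd1 (0.04) were lowest. The 13 interferon gamma response genes had a median of 0.41 with 4 at least 2-fold higher, or 30.8%, beside 11.4% of all genes. Among the 13, Cxcl10 (2.75) and Gbp2 (2.46) led and Iigp1, just short of 2-fold lower, and Ciita (-0.73) came last.

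**Figure D4:**
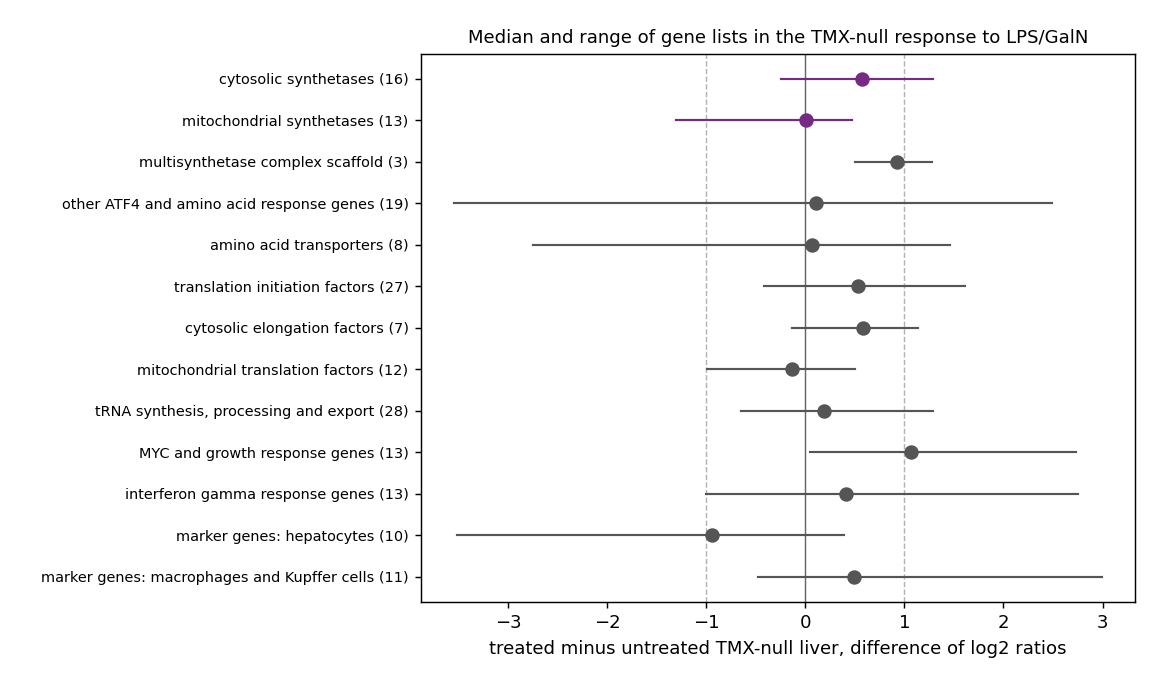
Median (point) and range from lowest to highest gene (line) of 13 gene lists (y axis, number of measured genes in brackets) in treated minus untreated TMX-/- liver (x axis, difference of log2 ratios). Dashed lines mark 2-fold. The cytosolic synthetases (0.58) lie beside the initiation factors (0.53) and cytosolic elongation factors (0.58), the mitochondrial synthetases (0.01) beside the mitochondrial translation factors (-0.13).

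Markers of the liver's cell types moved on the same arrays. Of 10 measured hepatocyte markers, 3 were 2-fold lower in treated wild-type, 0 in untreated TMX-/- and 6 in treated TMX-/- liver. Of all genes, 1.76%, 0.834% and 13.3% were 2-fold lower on these arrays. The hepatocyte medians were -0.22, -0.32 and -1.42, with a range of -4.48 (Cyp2e1) to -0.14 (Apob) on the last. With equal spread these medians were -0.29, -0.51 and -0.88. Of 11 measured macrophage markers, 8, 3 and 9 were 2-fold higher, with medians of 1.16, 0.79 and 1.44. Of all genes, 2.81%, 1.8% and 13.5% were 2-fold higher on these arrays. With equal spread the macrophage medians were 1.54, 1.25 and 0.89, so that treated TMX-/- liver was the lowest instead of the highest. All 3 measured monocyte markers were 2-fold higher in treated TMX-/- liver (median 3.09), against 0 of 3 in treated wild-type liver (median 0.71). In treated TMX-/- liver 5 measured neutrophil markers ran from -2.50 (Ly6g) to 4.45 (S100a9), 3 of 6 T and NK cell markers and 3 of 5 stellate cell markers were 2-fold higher, and medians were 0.17 for B cells, 0.69 for sinusoidal endothelium and 0.34 for cholangiocytes. The part of these markers in the synthetase values was not tested.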

How the data were processed

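Log ratios of 3 arrays with 2 channels each were analysed, 1 array per group. The values were deposited as log ratios and taken as log2 from their range. Their base, numerator, normalization and blank rule: not given in the sources used here. If they were natural logarithms, every fold would be raised to the power 1.44. RNA came from a miRNeasy kit and was amplified and dye-coupled, per the labels' protocols. Of 23473 rows, 16631 had 1 symbol in GEO's platform annotation, 0 several and 6842 none. Symbols were updated through RefSeq (GRCm38.p6): 12622 were current, 3947 renamed and 62 unmatched. Rows of a gene were averaged, and each array was centred on its median over 10186 genes with a value on all 3 arrays (-0.04, -0.03 and -0.07 before centring). The direction of the ratio was read from Tmx1. Calculations used Python 3.11.15, pandas 2.3.3 and numpy 2.4.6 and were checked on simulated arrays. Members and lists were chosen with earlier results of these data known. Every member was named, those at 2-fold and the extremes of each array in full. Genes of other lists were named from the 2 highest and 2 lowest of each in treated against untreated TMX-/- liver. Alternatives were no centring, equal spread, all genes with a value, another probe rule, a 1.5-fold threshold, natural logarithms, and, added after the data were seen, other readings of the names Vars2 and Hars2 and untreated TMX-/- liver as the baseline. The promoter matches of 1 gene are counted but not reported here.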

Additional observations from a re-analysis of the deposited data

Results flagged for a closer look

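The response to LPS/GalN had opposite signs in the 2 genotypes, with at least 1 side beyond the SD of a single probe, for 3 synthetase genes, and these differences were not tested. Nars2 stood at 0.30 in treated wild-type liver against its control and at -1.30 in treated against untreated TMX-/- liver. Eprs stood at 0.48 and -0.22, and Vars2 at -0.55 and 0.089. In each of these genes the other side lay within the SD of a single probe, so its sign is uncertain. That SD was 0.42 in treated wild-type liver, which holds Nars2 at 0.30. It was 0.68 for the TMX-/- difference, which holds Eprs and Vars2. The matching share of all genes was not counted.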

How the results depend on the processing

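The 15 medians (cytosolic, mitochondrial and their difference in 5 comparisons) moved by less than the SD of a single probe under every alternative run, 92 values in all, although that SD exceeds most of them. The cytosolic median stayed above 0 in treated wild-type (0.28 to 0.59), untreated TMX-/- (0.10 to 0.26), treated TMX-/- (0.51 to 0.82) and treated against untreated TMX-/- liver (0.21 to 0.61). In treated TMX-/- minus wild-type liver it ran from -0.16 to 0.36, and the cytosolic minus mitochondrial median from -0.11 to 0.32. Counts at 2-fold were small and moved more. With equal spread, the higher cytosolic genes went from 1 to 3 in treated wild-type, 0 to 1 in untreated TMX-/-, 4 to 0 in treated TMX-/- liver, 3 to 0 in treated against untreated TMX-/- and 1 to 0 in treated TMX-/- minus wild-type liver, beside 5.88%, 5.94%, 4.99%, 6.57% and 4.39% of all genes. The mitochondrial genes went from 1 to 2 higher in untreated TMX-/- liver, and from 1 to 0 higher and 2 to 0 lower in treated TMX-/- liver. At 1.5-fold these 5 cytosolic counts were 4, 1, 11, 8 and 3, beside 9.84%, 7.03%, 25.4%, 23.2% and 21.0% of all genes, and as natural logarithms 3, 1, 10, 6 and 3, beside 7.14%, 4.81%, 21.8%, 19.4% and 17.6%. At 1.5-fold, 1, 3 and 2 mitochondrial genes were higher on the 3 arrays. In treated TMX-/- liver 3 were lower at 1.5-fold, beside 24.98% of all genes. In treated wild-type and untreated TMX-/- liver 0 were. In the 2 differences 4 and 3 were lower at 1.5-fold, beside 23.6% and 21.2% of all genes, and natural logarithms gave 3 and 3. Without centring, 0 mitochondrial genes were higher in untreated TMX-/- liver. With Mars2 counted, 2 were higher in treated TMX-/- liver. Treated wild-type against untreated TMX-/- liver gave 0 cytosolic genes higher and 1 mitochondrial gene lower, Wars2 at -1.06, and Lars2 turned from 0.60 to -0.032. With equal spread the scaffold median in treated against untreated TMX-/- liver turned from 0.93 to -0.11. No paired analysis was possible because each group has 1 array. The table holds no signal values, so precision at low signal is unknown.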
